A study of Arabidopsis thaliana with 12 samples.

Results

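The genes described here are 10 IQD genes of Arabidopsis thaliana: iqd15, IQD16, IQD18, IQD19, iqd21, IQD22, IQD23, IQD24, IQD26 and IQD27. They were chosen by name, as the genes of this list to which the probe annotation gives a probe set of a single gene. The rule itself uses no measured value, though the list was drawn up with earlier results of these data known. Each of the 10 has 1 such probe set, out of 13513 single-gene probe sets and 22746 tested in all. None of the 10 is of a type that is shared with related transcripts by design. By the RefSeq gene table of TAIR10.1, IQD18 (AT1G01110) and IQD27 (AT1G51960) lie on chromosome 1, IQD26 (AT3G16490), iqd21 (AT3G49260) and iqd15 (AT3G49380) on chromosome 3, IQD16 (AT4G10640), IQD19 (AT4G14750) and IQD22 (AT4G23060) on chromosome 4, and IQD24 (AT5G07240) and IQD23 (AT5G62070) on chromosome 5. The build behind the probes is not stated in the sources used here, so no positions are printed.

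IQD proteins are a plant-specific family named after a conserved block of IQ motifs, short stretches that bind calmodulin, the calcium sensor. Many of them sit on microtubules or at the plasma membrane, and they are regarded as scaffolds that tie calcium signals to the cytoskeleton. Microtubules set the direction of cell expansion and, in dividing cells, build the preprophase band, the spindle and the phragmoplast.

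The nuclei came from roots of 5-day-old Col-0 plants that all carried the same reporter, pCO2:YFP-H2B, in which the CO2 promoter drives a fluorescent histone in the root cortex. Plants grew in continuous light with no other treatment given. Nuclei were sorted on reporter fluorescence and DNA content into the classes 2C, 4C, 8C and 16C, and the RNA of each class went to 3 ATH1 arrays that the labels call biological replicates, 12 arrays in all, without naming separate plants or sorts. P-values therefore measure the spread between these arrays, which may be partly technical, and 3 arrays a class is what sets their precision. A nucleus gets from 4C to 8C only by a further round of replication without division, the endocycle, so this step was taken as endocycle entry. A 4C nucleus, by contrast, may be a cycling cell before mitosis or one already in the endocycle. In bulk RNA of a class, fewer nuclei that express a gene and less RNA per nucleus cannot be told apart.

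The arrays of a class correlated with each other at 0.937 to 0.973 in 2C and at 0.982 to 0.996 in 16C, so the classes were not equally tight. Control measures of the RNA also differed between the classes. The actin 3' minus 5' difference averaged 4.55, 3.90, 3.42 and 3.80 (log2) from 2C to 16C, and the bacterial poly-A spikes averaged 10.9, 10.5, 9.0 and 8.94. The GAPDH 3' minus 5' difference went another way, with means of 4.85, 5.20, 5.05 and 5.58. Of 36 marker genes listed for cortex and other tissues, 5 had a single-gene probe set. AT1G62500, the gene known as CO2 whose promoter drives the reporter, lay between 3.78 and 4.70 on all arrays, below the 4.81 that bounds the dimmest 40% of probe sets. The ground tissue factor JKD had means of 5.51, 5.94, 6.34 and 5.70 in order of DNA content. LHCB4.1, a light-harvesting gene that marks shoot tissue and was the only one of 11 shoot markers measured, lay at 8.51 to 9.88 in 2C, 8.05 to 8.77 in 4C, and 6.20 to 7.66 in 8C, and again at 8.14 to 8.42 in 16C. The other measured markers were GSO1 of the endodermis, at 4.42 to 5.93 over all arrays, and EXPA7 of root hair cells, at 4.22 to 5.33. From 2C to 16C the means of GSO1 were 4.82, 5.68, 5.28 and 5.00, and those of EXPA7 were 4.47, 4.40, 4.41 and 5.21. LHCB4.1 was lower in 8C than in 4C, with a change of -1.57 (limma adjusted p = 0.0422). EXPA7 was higher in 16C than in 8C (limma adjusted p = 0.0300). The part of the RNA measures and markers in the results below was not tested beyond the covariate fits given there. The actin difference was 3.83 to 4.03 in the 4C arrays and 3.34 to 3.56 in the 8C arrays, without overlap. A fit with it as a covariate therefore cannot separate it well from the step from 4C to 8C.

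Which of the 10 genes fell on endocycle entry was asked with the step from 4C to 8C. No fall was called for any of them, which does not show that none fell. Of the 10 members, 0 were lower and 0 higher in 8C at an adjusted p below 0.05 in limma, adjusted over all 22746 probe sets, while over all probe sets 5.17% were lower and 4.73% higher. At an unadjusted p below 0.05 there was 1 member, IQD18, where 5928 of all 22746 probe sets lay below that cut. Read against the background at the adjusted p, 9.9% in either direction, a count of 0 among 10 genes does not set the members apart.

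The size of the changes can be bounded. The median change of the 10 members was -0.03 (log2, 8C minus 4C), against 0.04 over all probe sets, and 6 of the 10 changes were below 0. The median size, regardless of sign, was 0.194, against 0.200 over all probe sets, and the median standard errors were 0.143 and 0.159. The 95% intervals of all 10 members lay above -1, so each excluded a fall of 2-fold or more on the scale of these signals, though that of IQD22 did so only just, with a lower bound of -0.998. These bounds are those of the fit without covariates. With the actin difference as a covariate, the change of IQD22 was -1.28 and that of IQD18 -0.91. Neither passed, but that fit called 0 of all 22746 probe sets in this step. For the 9 members other than IQD22 the intervals ran from -0.73 at the lowest to 0.79 at the highest.

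**Figure D1:**
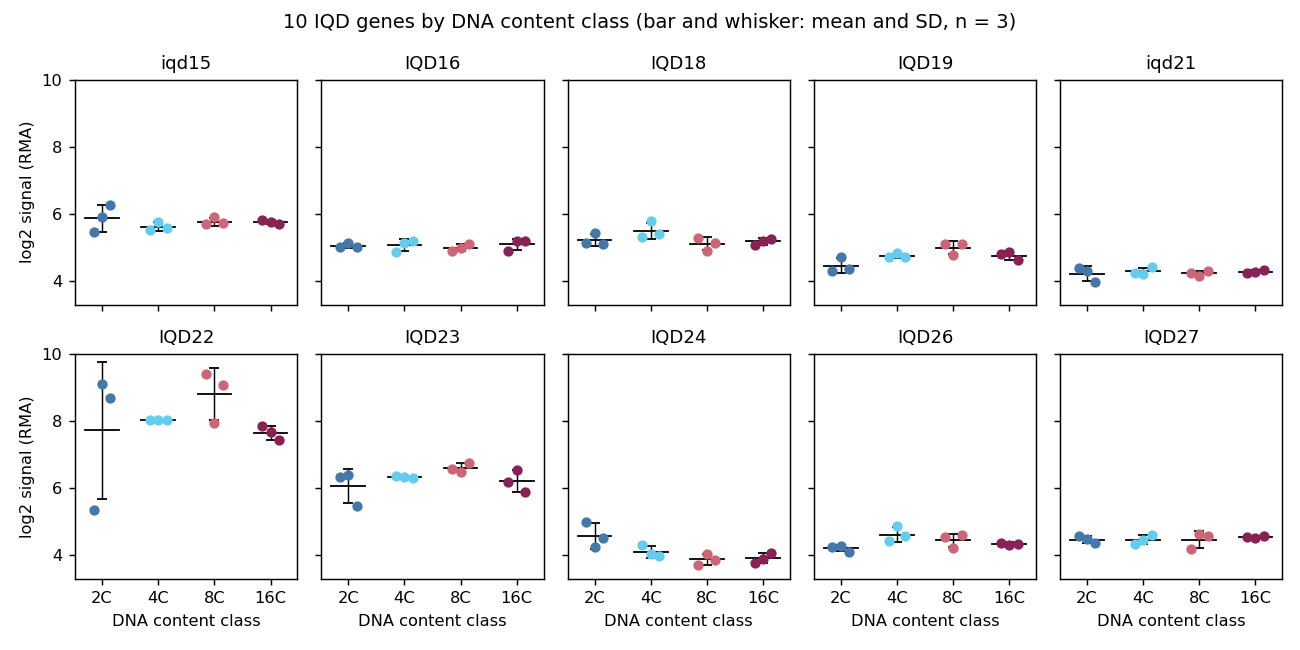
Signals (log2, RMA) of the 10 IQD genes in nuclei of each DNA content class on one common scale. Points are the 3 arrays of a class, and bars and whiskers are their mean and SD; 9 genes stay within narrow bands, whereas IQD22 spans 5.36 to 9.10 among the 2C arrays alone.

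The clade of iqd15, IQD16 and IQD18 comes first, since these genes, with IQD17, have been described as auxin-responsive and as partners of microtubule-associated proteins. IQD17 was not analysed here. IQD18 had signals of 5.13, 5.45 and 5.11 in 2C, 5.31, 5.78 and 5.42 in 4C, 5.29, 4.90 and 5.15 in 8C, and 5.08, 5.21 and 5.27 in 16C. Its 4C arrays all lay above its 8C arrays, by a margin of 0.02 between the closest of them, and 4C was its highest class. The change from 4C to 8C was -0.39 ± 0.15 (log2, SE), or 1.31-fold, with an unadjusted p of 0.0274 in limma and an adjusted p of 0.135. It was thus the member nearest to a fall on endocycle entry and did not pass the test. Over all probe sets, the arrays of 4C and 8C were likewise apart in this direction for 14.1%. Such shares were counted for 4C against 8C only. Separations between other classes, given below, describe the signals and have no such background.

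IQD16, whose protein binds microtubules and alters the shape of leaf epidermal cells when overproduced, had class means, from 2C to 16C, of 5.06 ± 0.08, 5.08 ± 0.18, 5.00 ± 0.11 and 5.10 ± 0.17 (SD, n = 3 each). All 12 arrays lay within 0.332 log2 units, the narrowest range of the members, and the class means within 0.102. The F test over the 3 doublings gave an adjusted p of 0.894. The change from 4C to 8C was -0.08, with an interval of -0.35 to 0.19.

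For iqd15 the values were 5.46, 5.90 and 6.26 in 2C, 5.52, 5.77 and 5.59 in 4C, 5.69, 5.90 and 5.72 in 8C, and 5.83, 5.76 and 5.71 in 16C. The lowest and the highest array of this gene were both of the 2C class, and the other classes lay between them. Its change from 4C to 8C was 0.15 ± 0.17 (SE, adjusted p = 0.641).

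**Figure D2:**
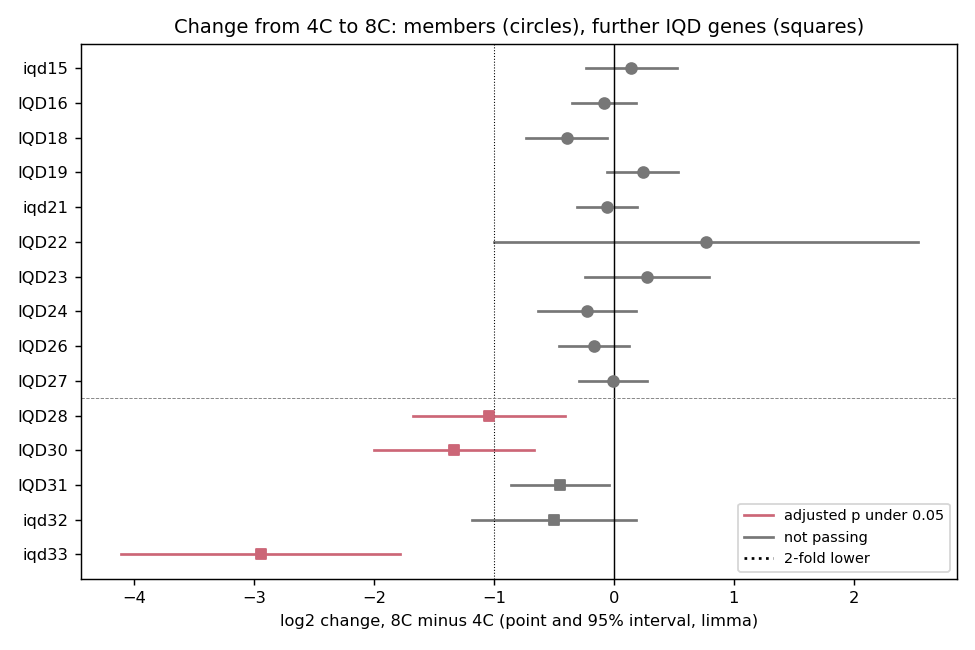
Change from 4C to 8C (log2, 8C minus 4C) with its 95% interval from limma, for the 10 members (circles) and for 5 further genes of the family (squares). The intervals of 9 members cross 0 and that of IQD18 ends at -0.05, whereas those of IQD28, IQD30 and iqd33 lie below -0.40, -0.66 and -1.78.

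IQD22 has been reported as a target of DELLA proteins, the repressors of gibberellin signalling. Its signals were 5.36, 9.10 and 8.69 in 2C, 8.03, 8.04 and 8.03 in 4C, 9.40, 7.93 and 9.08 in 8C, and 7.85, 7.66 and 7.43 in 16C. The first 2C array stood 3.33 log2 units below the nearest array of its class, while the 3 arrays of 4C lay within 0.0066. The 8C class had the highest mean, 8.80 ± 0.77 (SD, n = 3), and all 8C arrays lay above all 16C arrays. No contrast passed, with changes of 0.77 ± 0.80 (SE) from 4C to 8C (adjusted p = 0.591) and -1.15 ± 0.80 from 8C to 16C (adjusted p = 0.677). Without 2C replicate 1 the standard error of both steps went down to 0.316, because all classes share one estimate of the spread, and still neither passed (adjusted p = 0.140 and 0.165). The change from 2C to 4C, 0.32 with all arrays, was -0.86 without that array, and that of 16C against 2C went from -0.07 to -1.25 (adjusted p = 0.0527), so the values against 2C rest on 1 array.

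IQD23 had signals of 6.33, 6.38 and 5.47 in 2C, 6.37, 6.33 and 6.31 in 4C, 6.58, 6.49 and 6.76 in 8C, and 6.19, 6.55 and 5.89 in 16C. The 8C arrays were above all 4C arrays, the only member for which this held; the background for such a separation was 17.5%. The change of 0.27 ± 0.23 (SE) did not pass (adjusted p = 0.504). A single array, here 2C replicate 3, again lay apart from the other arrays of its class.

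The 5 remaining members, IQD19, iqd21, IQD24, IQD26 and IQD27, lay in the dimmest 40% of probe sets by mean signal. In that range 2.28% of all probe sets were called from 4C to 8C, against 15.0% of the brighter probe sets, and the table has no detection calls. Small changes of these 5 genes may thus have been compressed, and a low signal is not a measure of absence.

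IQD24 was the single member with a call in any of the 5 contrasts. It had signals of 5.00, 4.24 and 4.50 in 2C, 4.31, 4.03 and 3.97 in 4C, 3.72, 4.04 and 3.87 in 8C, and 3.78, 3.90 and 4.07 in 16C. The 2C arrays lay above all 8C and all 16C arrays but overlapped with those of 4C. It fell from 2C to 16C, with a change of -0.66 ± 0.18 (log2, SE, limma adjusted p = 0.0375), or 1.59-fold, where 8.05% of all probe sets were lower. In the contrast of 8C and 16C with 2C and 4C, for which the background of lower probe sets was 13%, its change was -0.44 ± 0.13 (adjusted p = 0.0317).

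From 2C to 4C the change of IQD24 was -0.48 ± 0.18 (adjusted p = 0.278) and from 4C to 8C -0.22 ± 0.18 (adjusted p = 0.488), and neither step passed, so that the fall is not placed at endocycle entry or at any other single step. The F test did not pass either (adjusted p = 0.0602). The call for 16C against 2C held in 11 of 24 alternative settings and that for the pooled classes in 12 of 23. These settings include a 2-fold minimum, which changes of this size cannot meet. Among the arrays left out in turn, the first was lost without 2C replicate 1 or 4C replicate 2, and also without 8C replicate 3 or any 16C array. The second was lost without 4C replicates 1 or 2, or 8C replicates 1 or 3, and likewise for 16C replicates 1 or 2.

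IQD19 had signals of 4.31, 4.71 and 4.37 in 2C, 4.73, 4.83 and 4.73 in 4C, 5.11, 4.77 and 5.12 in 8C, and 4.80, 4.87 and 4.62 in 16C. All 2C arrays lay below all 4C arrays, though by only 0.02 at the closest, and 8C had the highest mean. Its direction was thus opposite to that of IQD24, and over the 12 arrays the signals of the 2 genes had a Pearson r of -0.858. IQD19 did not pass the F test (unadjusted p = 0.0166, adjusted p = 0.0758), and its change from 4C to 8C was 0.24 ± 0.13 (SE, adjusted p = 0.290). In the contrast of 8C and 16C with 2C and 4C the change was 0.27 ± 0.09 (adjusted p = 0.0610), which passed in 3 of 23 alternative settings.

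**Figure D3:**
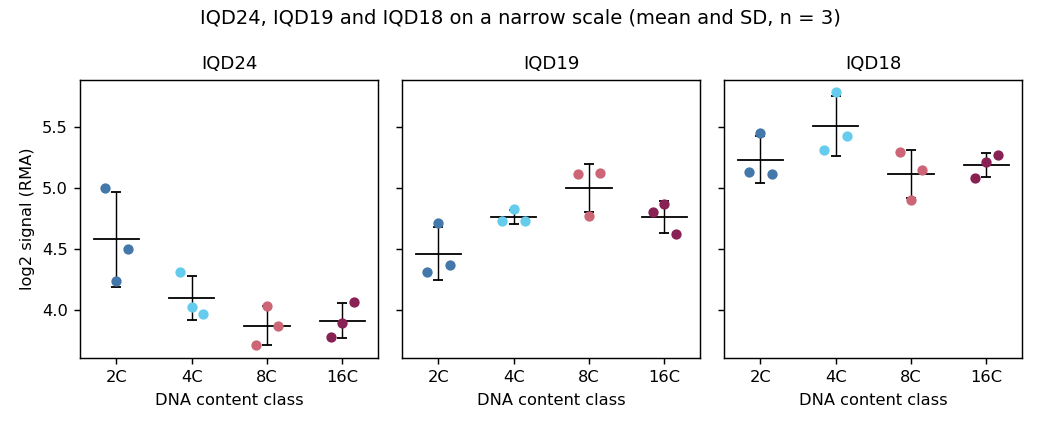
Signals (log2, RMA) of IQD24, IQD19 and IQD18 by DNA content class on a scale of about 2 log2 units. Points are arrays, bars and whiskers the mean and SD of 3; IQD24 is highest in 2C, IQD19 lowest in 2C and highest in 8C, and IQD18 highest in 4C.

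IQD26 had its lowest mean in 2C, with signals of 4.25, 4.28 and 4.1, against 4.42, 4.86 and 4.57 in 4C, 4.53, 4.23 and 4.59 in 8C, and 4.38, 4.31 and 4.35 in 16C. The 4C arrays were all above the 2C arrays. Its change from 2C to 4C, 0.40 ± 0.13 (log2, SE), had the smallest p of the members in that step (unadjusted p = 0.0107, adjusted p = 0.195) and did not pass, where 0.602% of all probe sets were called. From 4C to 8C it changed by -0.16 ± 0.13 (adjusted p = 0.468).

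The genes iqd21 and IQD27 moved least beside IQD16. The class means of iqd21 lay between 4.23 and 4.30, with single arrays from 3.98 to 4.41. Those of IQD27 lay between 4.46 and 4.55, with single arrays from 4.18 to 4.64. Their changes from 4C to 8C were -0.06 and -0.005, with intervals of -0.31 to 0.19 and -0.29 to 0.28, and their adjusted p-values in the F test were 0.929 and 0.916.

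Across the other doublings the members had no calls either. From 2C to 4C 0 of 10 were called, where 0.602% of all probe sets were. An unadjusted p below 0.05 was found for 3 members (IQD19, IQD24 and IQD26) and for 3242 of all 22746 probe sets. The median size of change in that step, regardless of sign, was 0.276 for the members and 0.155 over all probe sets. From 8C to 16C, where 0.259% of all probe sets were called, 0 of 10 were called and 0 had an unadjusted p below 0.05. Below that unadjusted cut lay 2424 of all 22746 probe sets. The F test over the 3 doublings called 0 of 10 members against 17.3% of all probe sets, with 2 at an unadjusted p below 0.05 (IQD19 and IQD24). For the F test, the share of all probe sets at that unadjusted cut was not counted. The class with the highest mean differed between members: it was 2C for iqd15 and IQD24, 4C for IQD18, iqd21 and IQD26, 8C for IQD19, IQD22 and IQD23, and 16C for IQD16 and IQD27. The 45 pairs of members had a median Pearson r of 0.008 over the 12 arrays, with 22 below 0, and these points share arrays, amplification and normalization.

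The annotation names 15 of the 33 genes of the family with a single-gene probe set, and the 5 that are not in the list above, IQD28, IQD30, IQD31, iqd32 and iqd33, did fall in part. From 4C to 8C, 3 of the 5 were lower and 2 did not pass, where 5.17% of all probe sets were lower, and their median change was -1.04, against -0.03 for the 10 members; the difference between the 2 sets was not tested. These 5 were counted from a list written with earlier results of these data known.

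The gene iqd33 had signals of 8.38, 7.19 and 6.79 in 4C and 4.18, 4.54 and 4.80 in 8C, after 8.44, 6.42 and 8.15 in 2C and before 5.90, 5.24 and 5.31 in 16C. Between 4C and 8C it fell by 2.95 ± 0.53 (log2, SE, limma adjusted p = 0.00910), or 7.71-fold, and all arrays of 2C and 4C lay above all those of 8C and 16C. IQD30 had 6.29, 6.53 and 5.88 in 4C against 4.81, 4.84 and 5.04 in 8C and fell by 1.33 ± 0.30 (adjusted p = 0.0232). IQD28 had 6.39, 6.12 and 6.71 against 4.71, 5.74 and 5.66 and fell by 1.04 ± 0.29 (adjusted p = 0.0469). In each of these 3 genes the 4C and 8C arrays did not overlap, as was so in this direction for 14.1% of all probe sets. IQD31, whose 4C and 8C arrays did not overlap either, had a change of -0.45 ± 0.18 (adjusted p = 0.152) and iqd32 one of -0.50 ± 0.31 (adjusted p = 0.342). In the contrast of 8C and 16C with 2C and 4C, 4 of the 5 were lower, where 13% of all probe sets were. IQD31 was among them, with a change of -0.45 ± 0.13 (limma adjusted p = 0.0313). That call held in 11 of 23 alternative settings.

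**Figure D4:**
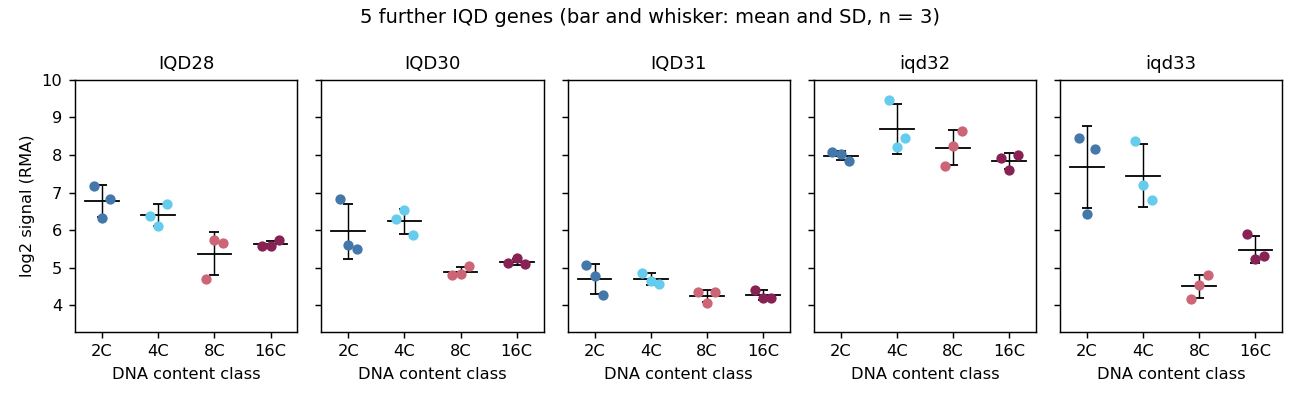
Signals (log2, RMA) of the 5 further IQD genes by DNA content class, on the same scale as for the members. Points are arrays, bars and whiskers the mean and SD of 3; iqd33, IQD30 and IQD28 step down between 4C and 8C, while the 4C and 8C arrays of iqd32 overlap.

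These 3 falls differed in how they held. That of iqd33 passed in 23 of 25 alternative settings, that of IQD30 in 19 and that of IQD28 in 9. With a covariate for the poly-A spikes 0 of the 5 passed, with changes of -2.84, -1.21 and -1.19 for iqd33, IQD30 and IQD28. That fit called 381 of all 22746 probe sets in this step, against 2251 in the main fit. With the actin difference as a covariate 0 of the 5 passed, with changes of -1.06, -0.84 and -0.49 for the same genes. In the latter fit 0 of all 22746 probe sets were called by limma in this step, with 1744 at an unadjusted p below 0.05. Without 4C replicate 1, 4C replicate 2 or 8C replicate 1, 1 of the 5 passed, iqd33. Over all probe sets these fits called 766, 1162 and 960 in this step.

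Beside the family, genes that work with microtubules or calmodulin were counted from fixed lists, to be read against the 5.17% of all probe sets that were lower and the 4.73% that were higher. Of 7 measured tubulins, 1 was lower in 8C than in 4C and 6 did not pass, and 1 of 7 is not far from the background. All 7 changes were below 0, with a median of -0.65, where 43.3% of all probe sets were below 0. In the contrast of 8C and 16C with 2C and 4C, 5 of the 7 were lower, against 13% of all probe sets. The tubulin called from 4C to 8C was TUB6, a beta-tubulin, which fell by 1.15 ± 0.32 (SE, limma adjusted p = 0.0484). Of 18 measured microtubule-associated and division plane genes, 3 were lower, 1 was higher and 14 did not pass, with a median change of -0.24. TRM24 fell by 1.4 ± 0.22 (adjusted p = 0.00518), ATMAP65-6 of the microtubule-bundling MAP65 family by 1.41 ± 0.28 (adjusted p = 0.0144), and TRM33, named to complete the count after its value was seen, by 1.17 ± 0.27 (adjusted p = 0.0251). TRM18 rose by 0.94 ± 0.17 (adjusted p = 0.0102). Of 7 measured calmodulin-like genes 0 were called by limma and 1, CML42, had an unadjusted p below 0.05 (change 0.68 ± 0.23, adjusted p = 0.0859). No gene of the kinesin light chain-related or cellulose synthase lists had a single-gene probe set.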

How the data were processed

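Arrays of the 4 DNA content classes, 3 each, were grouped by their titles. The authors deposited log2 probe set signals made by RMA, per the submitters' processing notes, from RNA that had been amplified in 2 rounds, per the labels' protocols; no source used here states its version or settings. Array medians of 5.22 to 5.36 show the log2 scale. RMA makes the array distributions alike, so a change in total RNA per nucleus cannot be seen. No scanner files were used, and the table held 0 columns of other samples.

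After leaving out 64 control probe sets, all 22746 others entered 1 linear model over the 12 arrays without a block (limma 3.58.1, R 4.3.3), with Benjamini-Hochberg adjustment over all of them and a threshold of 0.05. Errors with changes are moderated standard errors, and intervals are at 95%. The fit was tested on simulated data. Genes were named through the platform annotation; symbols were brought up to date through Entrez IDs with a RefSeq gene table of TAIR10.1 for 13436 of 13513 single-gene probe sets. Normalization to reference genes used the 2 of 8 listed that were measured.

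The members are set by name, and they and the lists were chosen with earlier results of these data known. All 10 members are named. Except for markers and normalization references, each list gives its called genes with the 3 smallest p from 4C to 8C, or else its smallest. A list of mitotic genes, named by other work on these data, had 4 genes measured. From 4C to 8C 3 of them were lower (AUR2, AT1G63100 and AUR1), where 5.17% of all probe sets were. Alternatives were a replicate block, other variance models, filters, normalizations, covariates and leaving out each array. Same-numbered arrays of 2 classes deviated together with r from -0.487 to 0.489, above 0.1 in 9 of 18 pairs, and were not treated as paired.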

Additional observations from a re-analysis of the deposited data

How the results depend on the processing

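From 4C to 8C, 0 of the 10 members were called in the main fit and in each of the 25 alternative settings, of which 12 leave out 1 array and 1 leaves only 5 members to test, and the same count of 0 held from 2C to 4C and from 8C to 16C. Some settings called few of all 22746 probe sets, so a count of 0 there says little. From 2C to 4C the fit of only the arrays compared called 0, against 137 in the main fit. From 8C to 16C the fit without 16C replicate 2 called 6, against 59. For 16C against 2C the count of 1 went to 0 with the replicate block, without the dimmest 40% of probe sets, shifted to reference genes, with only the arrays compared, with a 2-fold minimum, with either covariate and with 16C replicates 1 and 2 averaged, and lay between 0 and 1 without single arrays. For 8C and 16C against 2C and 4C the count of 1 went to 0 in the same settings other than the replicate block and the fit of only the arrays compared, to 2 with array weights, and lay between 0 and 2 without single arrays. The dim filter leaves IQD24 out, and its changes of 1.59-fold and 1.36-fold cannot meet a 2-fold minimum, so these settings do not retest it. For 16C against 2C the actin and poly-A covariate fits called 0 and 507 of all 22746 probe sets, against 3238 in the main fit. The F test called 1 with an intensity trend and robust variances and 1 with cyclic loess, and between 0 and 2 without single arrays. The replicate block changed no other count of members; with it IQD28 no longer passed from 4C to 8C (adjusted p = 0.0619). Of the 5 further genes, 0 were called from 4C to 8C with the actin or the poly-A covariate, against 3, and between 1 and 3 without single arrays. With these covariates 0 and 381 of all 22746 probe sets were called in that step, against 2251 in the main fit. Signs of changes from 4C to 8C turned for IQD19 (-0.0636), IQD22 (-1.28), IQD24 (0.206) and IQD27 (0.0364) with the actin covariate, and for IQD27 with array weights (0.0478) and without single arrays (from -0.0925 to 0.135, against -0.00488), and none of these passed. The causes were not tested. The dim signals of 5 members and the 3 arrays per class limit what could be detected.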

Other observations

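For the 3 further IQD genes that fell from 4C to 8C, the single-gene probe sets with the most similar signals over the 12 arrays were looked up, a step chosen after their values were seen. IQD30 was most like AUR1, an Aurora kinase of mitosis (Pearson r = 0.986), followed by AT5G50420 (r = 0.971) and AT1G56210 (r = 0.971). AUR1 had means from 2C to 16C of 7.32 ± 0.61, 7.66 ± 0.50, 6.13 ± 0.19 and 6.51 ± 0.05 (log2, SD, n = 3 each), and those of IQD30 were 5.98 ± 0.73, 6.23 ± 0.33, 4.90 ± 0.12 and 5.16 ± 0.08. In 2C replicate 1 the signals were 8.02 for AUR1 and 6.82 for IQD30, and in 4C replicate 2 they were 8.02 and 6.53. The gene iqd33 was most like scpl48, a serine carboxypeptidase-like gene (r = 0.976), and IQD28 most like AT1G76460 (r = 0.965). These correlations run over arrays that also differ in class and RNA measures, and they describe likeness only.

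Among the members, IQD24 had a profile near that of 2 of these genes, with r = 0.830 to IQD28 and r = 0.774 to iqd33, although its own change from 4C to 8C did not pass. The highest r between 2 members was 0.722, for IQD19 and IQD23, and the lowest -0.860, for iqd15 and iqd21.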
